A study of Homo sapiens with 2 samples.

Results

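The unfolded protein response of the endoplasmic reticulum (ER) is described through 10 of its genes in H6c7, a line of human pancreatic duct epithelium that was immortalised with genes of a papillomavirus, and in a derivative that carries an introduced K-ras oncogene. The members were fixed by name: the stress sensors ERN1 and ATF6, the XBP1 branch with XBP1, HERPUD1 and SEL1L, and the folding genes CALR, CANX, PDIA4, PDIA6 and P4HB. They are 10 of the 11963 genes that the array annotation names singly, and every probe set with exactly 1 of these symbols was taken, 23 in all. No probe set that carries several names included a member. Each line is represented by 1 Affymetrix U133A array, and the labels name no treatment of either. Whether the derivative was cloned, and whether the parental cells received an empty vector, is not stated. The oncogene itself was not analysed here, and the related HRAS had signals of 484 on the parental and 799 on the K-ras array.

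When unfolded proteins build up in the ER, the membrane sensor ERN1 (also called IRE1) splices XBP1 mRNA into a form that encodes an active transcription factor, and ATF6 moves to the Golgi, where it is cut to release another. A further sensor, EIF2AK3 (PERK), slows translation and favours that of ATF4. XBP1 and ATF6 raise genes for ER chaperones, disulfide isomerases and the pathway that returns misfolded proteins to the cytosol for degradation. Pancreatic exocrine and duct cells make and secrete glycoproteins, and XBP1 is best known in the pancreas from the acinar cells.

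XBP1 and ATF6 bind promoters at ER stress elements, so the promoter windows of the members were searched before their levels are given. Each window runs from 250 bases before to 50 bases after a listed transcript start (RefSeq, GRCh38.p14), and all 10 members had at least 1. The ER stress element (ERSE) was searched as CCAAT and CCACG separated by 9 bases of any kind, on both strands. It was present in 27 of 35116 windows (0.0769%), those of 25 of 27305 genes, and 4 of these genes were members: XBP1, CALR, CANX and PDIA6. The variant ERSE-II, ATTGG and CCACG separated by 1 base, was present in 19 windows (0.0541%), HERPUD1 among them. The unfolded protein response element, TGACGTGG, was present in 256 windows (0.729%), none of them a member's. ERSE and ERSE-II share the part CCACG but did not overlap in a member. The elements of the members follow because they mark promoters of the kind that these factors are known to bind, with HSPA5, the main ER chaperone BiP, for comparison. Capitals mark the element and lower case the 10 bases on either side.
XBP1: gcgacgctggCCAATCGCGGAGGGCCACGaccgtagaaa
CALR: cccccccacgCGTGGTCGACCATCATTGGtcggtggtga
CANX: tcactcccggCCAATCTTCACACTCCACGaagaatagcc
PDIA6: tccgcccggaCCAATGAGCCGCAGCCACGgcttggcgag
HERPUD1: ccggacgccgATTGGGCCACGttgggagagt
HSPA5: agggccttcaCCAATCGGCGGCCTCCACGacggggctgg

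The XBP1 stretch lies at chr22:28800593-28800631 on the minus strand, with the element 52 to 34 bases before 1 of 2 listed starts. The CALR stretch lies at chr19:12938374-12938412 on the plus strand, and its element reads in reverse, 225 to 207 bases before the start. The CANX stretch lies at chr5:179698768-179698806 on the plus strand. Its element begins 151 bases before 1 listed CANX start and lies within 3 of the 4 listed CANX windows. The PDIA6 stretch lies at chr2:10812843-10812881 on the minus strand, 86 to 68 bases before 1 of 2 listed starts. The HERPUD1 stretch, with the ERSE-II element 117 to 107 bases before the start, lies at chr16:56932015-56932045 on the plus strand. The HSPA5 stretch lies at chr9:125241381-125241419 on the minus strand. The other XBP1 window held no element. A match describes letters, not binding, and windows without a match can still be bound.

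Among the members, XBP1 and HERPUD1 were at least 2-fold higher in the K-ras line, P4HB was just under 2-fold higher, and in the probe set that stands for each gene the sensors, CANX, PDIA4 and PDIA6 differed by at most 1.24-fold. CALR was 1.46-fold higher, and SEL1L, 1.49-fold lower, had the lowest ratio. All ratios are K-ras over parental intensity. A single array per line gives no replicate error, so no difference was tested, and this number limits how precise any value can be. Repeat measurements exist between probe sets of a gene, and these are technical. Its pooled standard deviation of the log2 ratio was 0.46 over 1671 genes. A signal of 46.9, the higher of the array medians, served as the floor, and probe sets below it on both arrays were called not measured. Of the 23 member probe sets, 19 were above the floor on both arrays and 4 were not measured.

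**Figure D1:**
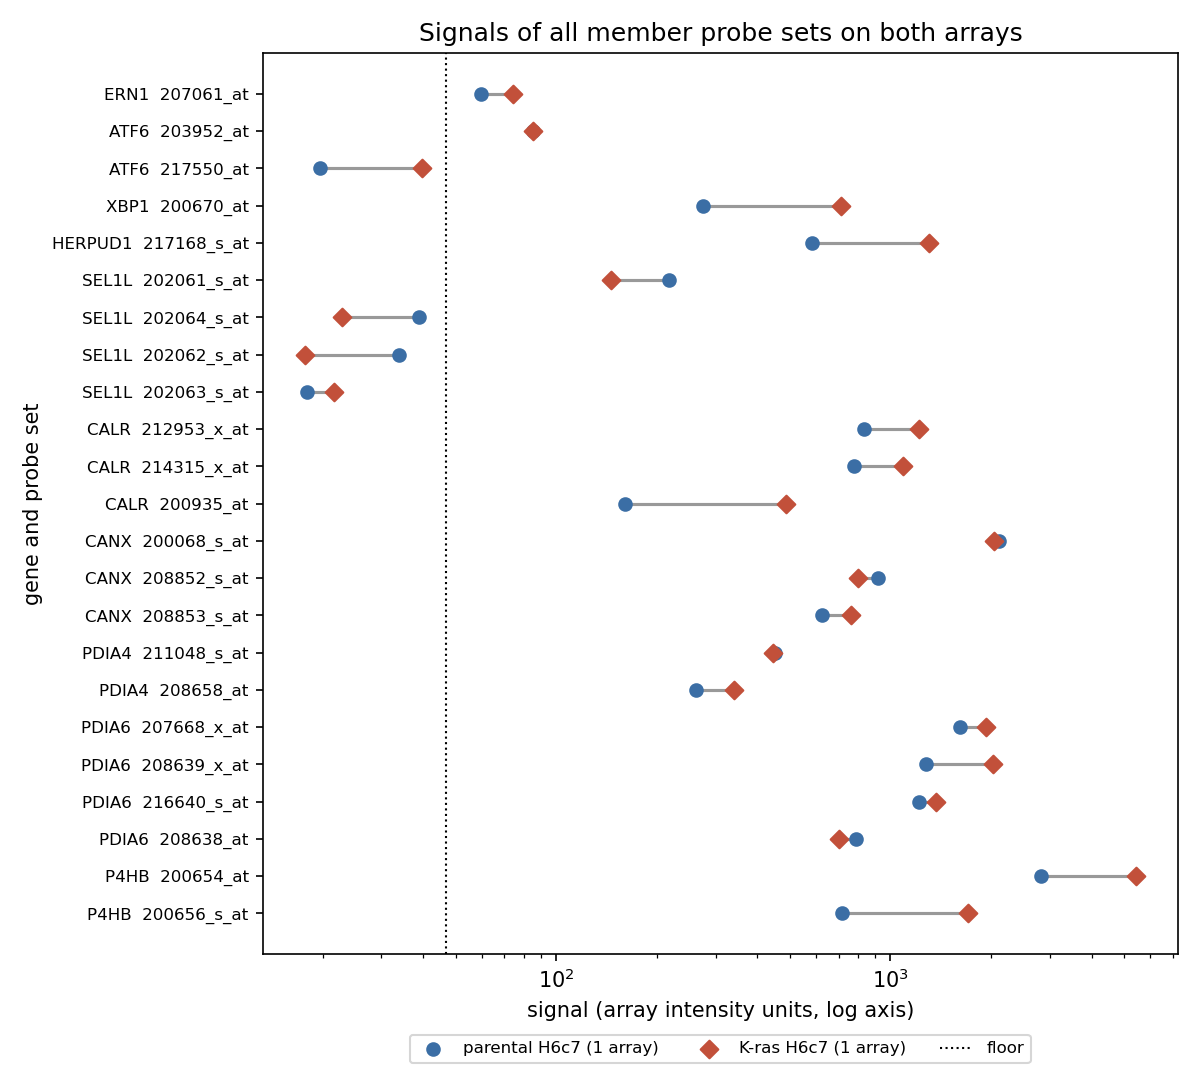
Signal of each member probe set (horizontal log axis, array intensity units) on the parental array (circles) and the K-ras array (diamonds), with the floor of 46.9 as a dotted line. Among pairs above the floor, those of XBP1, HERPUD1, P4HB and CALR 200935_at lie farthest apart, while 3 SEL1L and 1 ATF6 probe set lie below the floor on both arrays.

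ERN1, the kinase and endonuclease that splices XBP1, had a signal of 59.7 on the parental and 74.2 on the K-ras array in its only probe set, a log2 ratio of 0.31. Both signals were close to the floor. ATF6, the sensor that is itself a transcription factor once cut, had a signal of 85.3 on the parental and 85.2 on the K-ras array. Its other probe set was below the floor on both arrays, at 19.6 and 39.8. The ratios of both sensors were smaller than the spread between probe sets of a gene. The sensor EIF2AK3, which is no member, gave 72.0 on the parental array and fell short of the floor on the K-ras array, at least 1.54-fold lower. The transcription factor ATF4, downstream of EIF2AK3, had a log2 ratio of 1.94.

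XBP1 had a signal of 275 on the parental and 710 on the K-ras array, a 2.58-fold difference with a log2 ratio of 1.37. This ratio was higher than that of 96.1% of all measured genes. XBP1 has 1 probe set, which gives 1 intensity, and the splicing of its mRNA was not analysed here. The measured genes nearest to XBP1 in both log2 signals, over 2 arrays, were CRELD2, VAT1 and ZNF185, at distances of 0.073, 0.082 and 0.089. CRELD2 encodes a secreted ER stress protein, and its promoter is among the 25 with an ERSE. VAT1 and ZNF185 are in none of the gene lists below, and nearness in signal on 2 arrays cannot show shared control.

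HERPUD1, a membrane protein that helps to assemble the degradation complex, had a signal of 581 on the parental and 1307 on the K-ras array in its only probe set. Its log2 ratio was 1.17, a 2.25-fold difference. SEL1L, the adaptor that joins lumenal substrates to the ubiquitin ligase of the same complex, had a signal of 217 on the parental and 146 on the K-ras array. That log2 ratio of -0.57 was larger in size than the spread between probe sets but under 2-fold. The other 3 SEL1L probe sets were below the floor on both arrays, with signals of 18.0 to 38.8 on the parental and 17.7 to 22.8 on the K-ras array. The 2 members of the degradation complex thus differed in opposite directions, each on 1 measured probe set.

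CALR, or calreticulin, is the soluble lectin chaperone that holds newly made glycoproteins, and CANX, calnexin, is its membrane-bound relative. The CALR probe set with the highest signal gave 833 on the parental and 1216 on the K-ras array, a log2 ratio of 0.55. Another gave 777 and 1093. Both are _x_at probe sets, which can pick up related transcripts, so the value is uncertain. The third, CALR 200935_at, gave 161 and 486, a 3.02-fold difference. All 3 probe sets were higher on the K-ras array, but their log2 ratios had a standard deviation of 0.62, beside 0.46 pooled over genes. CANX had a signal of 2119 on the parental and 2047 on the K-ras array, and its other probe sets gave 918 and 799, and 626 and 762. Its 3 log2 ratios lay between -0.20 and 0.28, on either side of 0.

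The disulfide isomerases form and rearrange the disulfide bonds of proteins in the ER. P4HB, the isomerase first described, is also the beta subunit of collagen prolyl 4-hydroxylase and a subunit of the microsomal triglyceride transfer protein. Its signals were 2822 on the parental and 5431 on the K-ras array in one probe set, a 1.92-fold difference. In the other they were 716 and 1708, a 2.39-fold difference. Both probe sets were higher on the K-ras array, at log2 ratios of 0.94 and 1.25. PDIA4, an isomerase with an additional active site, had a signal of 452 on the parental and 447 on the K-ras array, and 262 and 340 in its other probe set. PDIA6, an isomerase also known to limit ERN1 activity, had a signal of 1613 on the parental and 1932 on the K-ras array in an uncertain _x_at probe set. The other 3 gave log2 ratios of -0.17, 0.17 and 0.67. Both P4HB ratios lay above those of all PDIA4 and PDIA6 probe sets, which fell on either side of 0, a difference that was not tested.

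**Figure D2:**
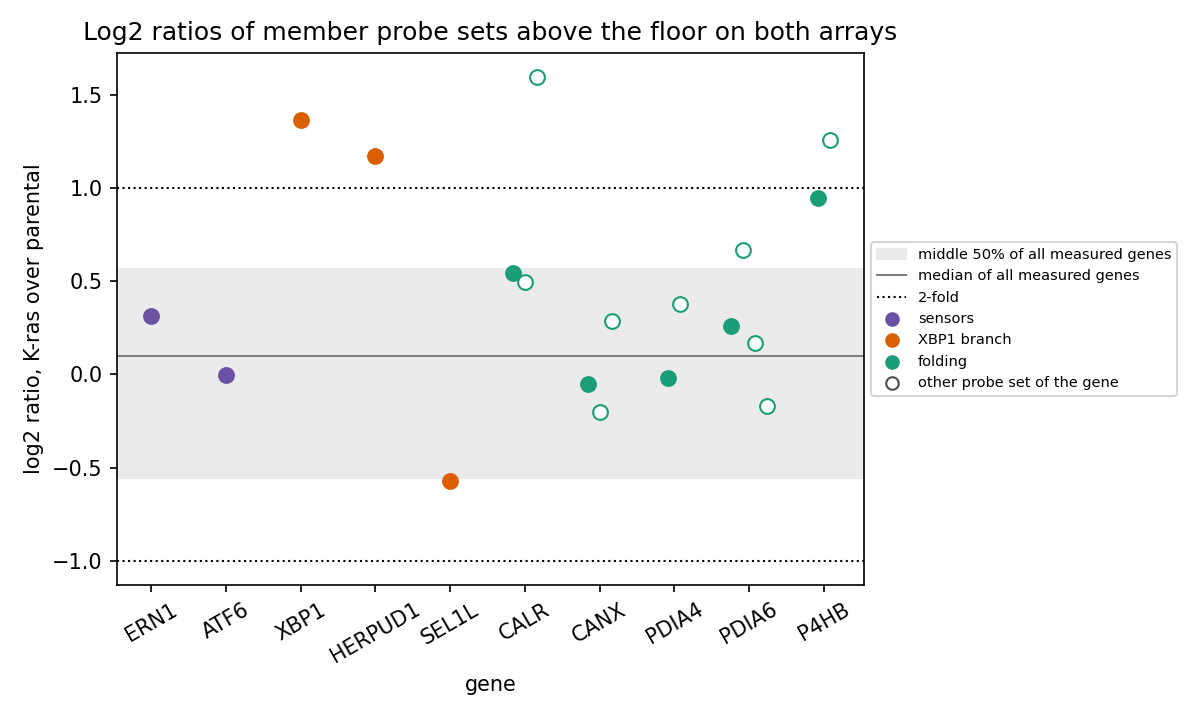
Log2 ratio of K-ras over parental (vertical axis) of the 19 measured member probe sets, by gene. Filled points are the probe set with the highest mean signal and open points the others. XBP1, HERPUD1, 1 CALR probe set and 1 P4HB probe set lie above 2-fold (dotted line) and no probe set reaches 2-fold lower.

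Counted by gene, 2 of 10 members (20.0%) passed 2-fold to the higher side and none to the lower. Over all 7693 measured genes these shares were 9.97% higher and 14.4% lower. All genes split into 767 higher and 1109 lower, and into 1093 higher and 844 lower when 100 maintenance probe sets set the scale. That scaling also raised the median log2 ratio of all measured genes from 0.10 to 0.24. By probe set, 4 of 19 passed 2-fold higher and none lower, beside 10.1% and 14.7% of 11090 named and measured probe sets. The median log2 ratio of the members was 0.29, beside 0.10 over all measured genes. By role it was 0.16 for the 2 sensors, 1.17 for the 3 genes of the XBP1 branch and 0.26 for the 5 folding genes. In the probe set that stands for each gene, both members past 2-fold thus belonged to the XBP1 branch, whose other gene, SEL1L, was lower. Of the 4 probe sets past 2-fold, however, 2 belonged to the folding genes CALR and P4HB. A log2 ratio within the spread between probe sets of a gene was found in 5 of 10 members. These are counts over few genes, each measured once, and the difference between roles was not tested.

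The other genes of the pathway were grouped in 8 lists, which overlap. Counts past 2-fold in each list stand beside 9.97% higher and 14.4% lower over all measured genes in the setting used throughout. In the list of sensors and regulators, 13 non-members were measured. Of these CREB3L2, an ER-bound transcription factor, was 2.44-fold higher, and NFE2L2, the oxidative stress factor NRF2, was 2.43-fold lower. CREB3 had a log2 ratio of 0.92. The list's median was 0.15 over 16 measured genes, 3 of them members, and -0.07 over the 13 non-members. The list's median has no direction, since it lay between -0.12, without _x_at and _s_at probe sets, and 0.52, with a floor at the 70th percentile.

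For known targets of XBP1 and ATF6 the median log2 ratio over 27 measured genes was 0.46, with 7 at least 2-fold higher and 2 lower. That median was 0.21 with the median over probe sets and 0.11 without _x_at and _s_at probe sets. Besides XBP1 and HERPUD1, the higher genes were the BiP co-chaperone DNAJB9 (2.94-fold), the ER membrane protein WFS1 (2.85-fold), CRELD2 (2.46-fold), the secreted ER stress factor MANF (2.14-fold) and the chaperone HYOU1 (2.04-fold). HSPA5 had signals of 3405 on the parental and 5270 on the K-ras array, a 1.55-fold difference. The lower genes were HSP90B1, the ER form of HSP90, at 3.33-fold on an uncertain _x_at probe set, and SSR1, a subunit of the translocon-associated complex, at 2.41-fold with 4 probe sets between log2 ratios of -1.52 and -0.99. Another DNAJB9 probe set was below the floor on the parental array and at 48.0 on the K-ras array, which gives no useful ratio. The counts of the target list changed with the setting, and HYOU1 was close to the threshold. Median centring and the loess curve each gave 6 higher and 3 lower. The floor as a pseudocount gave 5 higher and 2 lower. Without _x_at and _s_at probe sets 5 were higher and 1 lower, and scaling on maintenance probe sets gave 9 higher and 2 lower. The counts over all measured genes moved too, from 767 higher and 1109 lower. They were 460 and 721 without _x_at and _s_at probe sets, and 1093 and 844 under scaling on maintenance probe sets.

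The degradation list, to which HERPUD1 and SEL1L belong, was not shifted to the higher side. Its median log2 ratio was -0.12 over 25 measured genes, or 0.03 under scaling on maintenance probe sets, with 3 at least 2-fold higher and none lower. The floor as a pseudocount left 1 higher, leaving out _x_at and _s_at probe sets 1 higher and 1 lower, and median centring 2 higher and 2 lower. Apart from HERPUD1 the higher genes were the mannosidase-like EDEM2 (2.34-fold) and AUP1 (2.13-fold), which recruits a ubiquitin-conjugating enzyme. The lowest ratios were those of ERLIN2 at -0.94 and TRAM1 at -0.92. Of the derlins, channel proteins of the complex, DERL2 was at -0.76, while DERL1 was at 0.55 in 1 probe set and -0.01 in the other.

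Among genes for disulfide bonds, 16 were measured, with 1 at least 2-fold higher, 2 lower and a median log2 ratio of 0.07, or 0.02 to 0.25 under other settings. The sulfhydryl oxidase QSOX1 was 3.70-fold higher, and the next highest, TMX2, had a log2 ratio of 0.50. The ER reductase DNAJC10 was at least 5.76-fold lower and the membrane isomerase TMX1 was 2.87-fold lower. ERO1A, the oxidase that recharges P4HB, had a log2 ratio of -0.64, and PDIA3, the isomerase that works with CALR and CANX, one of 0.18. In the calnexin and calreticulin list the median was 0.18 over 11 measured genes, or 0.06 to 0.37 under other settings. Only the cargo receptor LMAN2 passed 2-fold, at 2.02-fold higher, and under median centring or with the floor as a pseudocount no gene of the list did. UGGT1, which returns misfolded glycoproteins to CALR and CANX, had a log2 ratio of -0.32, as did EDEM1, and the glucosidase subunit PRKCSH one of 0.81.

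The ER HSP70 and HSP90 system, a list with no member, had 5 of 14 measured genes at least 2-fold higher and 3 lower, with a median log2 ratio of 0.48. With the floor as a pseudocount 3 were higher, and without _x_at and _s_at probe sets 3 were higher and 1 lower. The nucleotide exchange factor SIL1 was 2.78-fold higher, beside DNAJB9, CRELD2, MANF and HYOU1. SEC63, which couples BiP to the translocon, was 3.69-fold lower, with another probe set at -0.67. Prolyl isomerases and hydroxylases had a median of 0.46 over 16 measured genes. FKBP9 was 2.01-fold higher, a call lost under median centring, the loess curve and the floor as a pseudocount. PLOD2 was at least 2.49-fold lower, a call lost with the floor as a pseudocount and with a floor at the 70th percentile, and it had no value without _x_at and _s_at probe sets. The cyclophilin PPIB had a log2 ratio of 0.93. The alpha subunits that pair with P4HB in prolyl hydroxylase did not have its ratio, with P4HA1 at -0.59 and P4HA2 at -0.03. MTTP, its partner in the lipid transfer protein, was below the floor on both arrays. The oligosaccharyltransferase, which adds glycans to new proteins, had a median of -0.01 over 8 genes, or -0.34 to 0.19 under other settings. MAGT1 was 2.05-fold lower, a call lost under 5 of 11 settings, and TUSC3 had a log2 ratio of -0.44. The highest were TMEM258 at 0.73 and DAD1 at 0.51.

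Of the 25 genes with an ERSE in a promoter window, 14 were on the array and 13 were measured, with a median log2 ratio of 0.55. Over all measured genes the median was 0.10, with 9.97% at least 2-fold higher, 14.4% at least 2-fold lower and 44.8% below 0. Of the 13 ERSE genes, 10 were higher on the K-ras array, with GLRA2, SYNPO and ALG12 among them as bounds under 2-fold. XBP1, CRELD2 and FICD, 3 genes (23.1%), were past 2-fold, and 3 were lower, 1 of them by at least 2-fold (HSP90B1). FICD encodes an enzyme that modifies BiP, and SERP1, a stabiliser of the translocon that also carries an ERSE, had a log2 ratio of 0.81, with other probe sets down to -1.03. Of the 13, 8 belong to the lists above, 4 as members. The 4 members with an ERSE ranged from -0.05 in CANX to 1.37 in XBP1, so that members with the same element differed. ERSE-II holders did not share a direction, with 6 of 13 measured genes higher and 7 lower and a median of -0.10. At least 2-fold higher were 3 of the 13, HERPUD1, HYOU1 and NUCB1, at 1.17, 1.03 and 1.37. At least 2-fold lower were 2, PLS3, an actin-bundling gene, at -2.70, and SHCBP1, at least 3.03-fold lower. Of 83 measured genes with the unfolded protein response element, 39 were higher and 43 lower, with a median log2 ratio of -0.04. At least 2-fold higher were 12 of the 83 and at least 2-fold lower 17, beside 9.97% and 14.4% of all measured genes. P4HB held none of the searched elements in its window. These counts are descriptions of 2 arrays and were not tested.

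**Figure D3:**
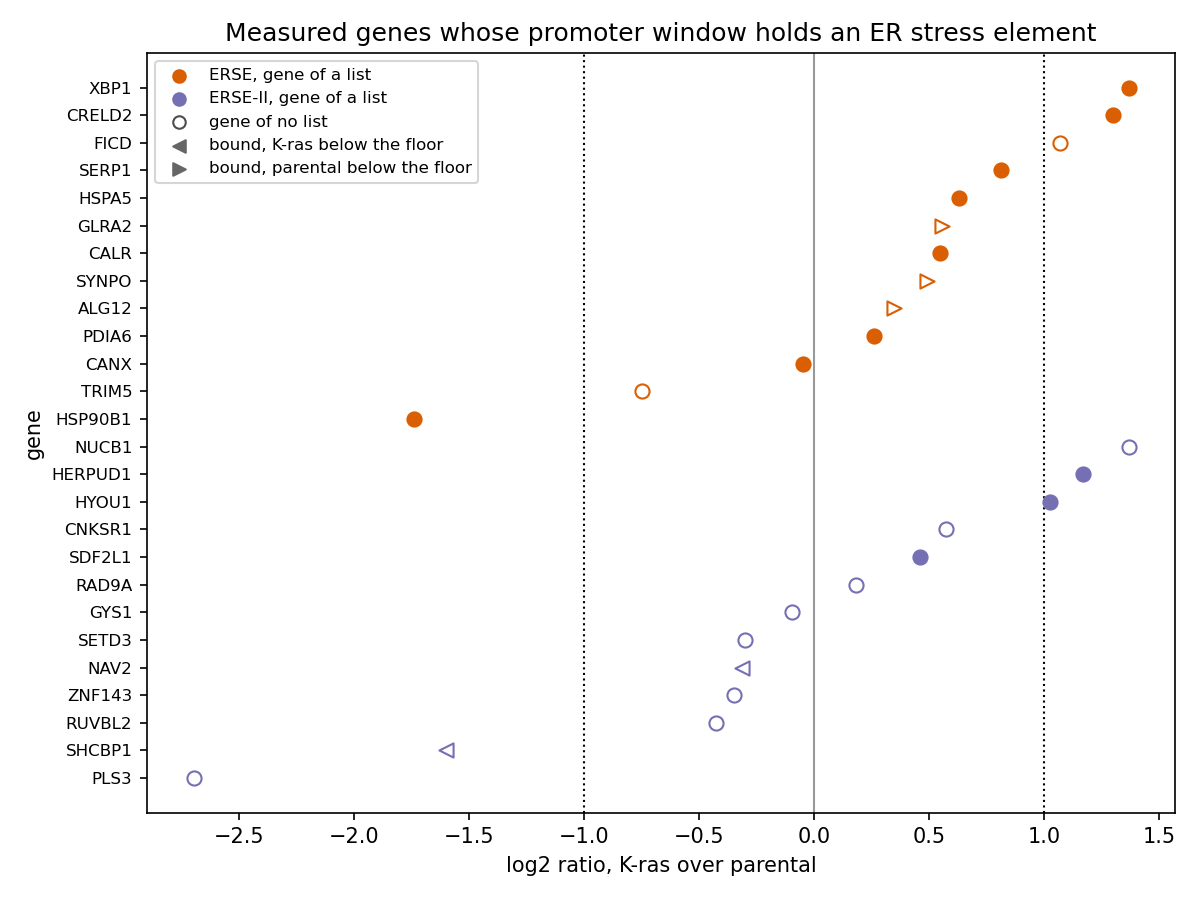
Log2 ratio of K-ras over parental (horizontal axis) of the measured genes with an ERSE (orange) or ERSE-II (violet) in a promoter window. Filled points are genes of the ER lists, open points genes of no list, and triangles bounds. XBP1 and CRELD2 have the highest ratios among ERSE genes and HSP90B1 the lowest.

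The labelled cell type was checked against marker genes. Of 11 duct markers on the array 9 were measured, with KRT19, KRT7, KRT18, KRT8, EPCAM and CDH1 at signals of 478 to 8606 over both arrays and CFTR and SPP1 below the floor on both. Of these 9 markers 4, KRT19, EPCAM, SOX9 and CA2, were at least 2-fold lower on the K-ras array and none higher. Over all measured genes these shares were 14.4% and 9.97%. EPCAM and SOX9 were close to the threshold, at log2 ratios of -1.06 and -1.03, and another SOX9 probe set was at 0.04. KRT8 was 1.84-fold higher. The marker counts were not recomputed under other settings. CA2 had a signal of 267 on the parental array and was below the floor on the K-ras array. MUC1 was below the floor on the parental array and at 58.3 on the K-ras array. The part of these differences in the members' ratios was not tested. The summed signal of the duct list was 18526 on the parental and 17055 on the K-ras array, of which KRT18 alone gave 6622 and 8606. Of 9 markers of acinar cells, which are known for high XBP1, 3 were measured, none with a signal over 83.1, and the summed signal was 234 on the parental and 292 on the K-ras array. Carboxypeptidase CPA1 and the lipase CEL had signals of 1.90 to 4.30. Of 10 fibroblast markers 4 were measured, with sums of 309 and 417. Of 8 plasma cell markers 3 were measured, and only SDC1, which epithelial cells also express, was well above the floor. In bulk RNA, more cells with a transcript and more of it per cell cannot be told apart.

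XBP1 and HERPUD1 were past 2-fold under every alternative setting that gave a value for them. Each has 1 probe set well above every floor used, so a changed floor and the median over probe sets could not move them. Leaving out _x_at and _s_at probe sets could not move XBP1 either, and the deposited values were nearly the rescaled ones. For these 2 genes only the other scalings and the floor as a pseudocount could change the value. Over 11 alternative settings the log2 ratio of XBP1 ranged from 1.23 to 1.56. That of HERPUD1 ranged from 1.07 to 1.36 over the 10 settings that gave a value. P4HB ranged from 0.80 to 1.14 and passed 2-fold under 2 of 11 settings. SEL1L ranged from -0.67 to -0.38. ATF6, CANX, PDIA4 and PDIA6 changed sign between settings and have no direction here. CANX was above 0 only under scaling on maintenance probe sets, and its main probe set is itself 1 of those that set this scale.

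**Figure D4:**
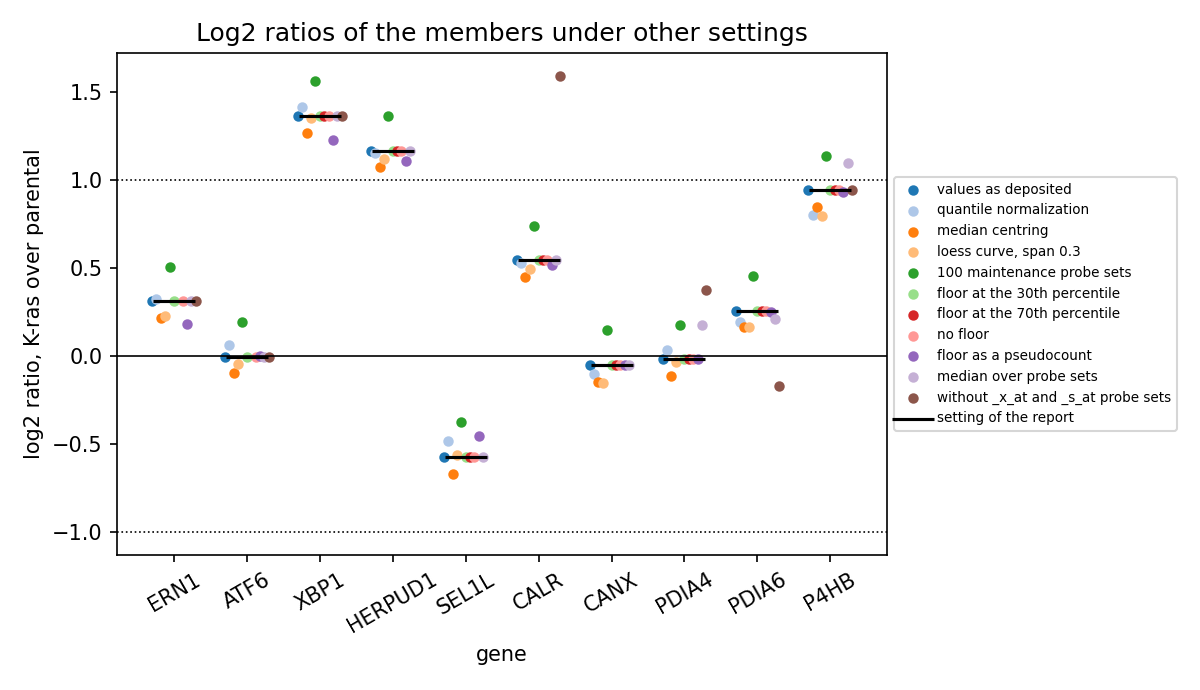
Log2 ratio of K-ras over parental (vertical axis) of each member under the 11 alternative settings (coloured points) and the setting used throughout (black bars). XBP1 and HERPUD1 stay above the 2-fold line, and CALR lies above it only without _x_at and _s_at probe sets, at 1.59.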

How the data were processed

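RNA of each line was converted to cRNA and hybridised to 1 Affymetrix U133A array, per the labels' protocols. The authors deposited 1 linear intensity per probe set and array for 22283 probe sets, 68 of them controls. No source used here names the software. The mean without the lowest and highest 2% of probe sets was 150.06 in both deposited columns, and both were rescaled to the same trimmed mean. Of 19071 probe sets with 1 symbol, 19059 were matched to GRCh38.p14 gene numbers, 1043 had several symbols and 2169 were unnamed here. The probe set with the highest mean log2 signal stands for a gene. Where a gene fell short of the floor on 1 array only, the floor replaced that value, the ratio is written as "at least", and list medians use it so. A gene was counted when past 2-fold.

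Members and lists were chosen with earlier results of these data known. Named genes are the members, their main neighbours, the 2 highest and 2 lowest non-members of each list and the 3 genes nearest to XBP1. Other genes named, such as those in counts and those with promoter elements, were chosen after their values were seen. Protein sequence features were not analysed here. The procedure was checked on simulated arrays, with changes set well past 2-fold in genes well above the floor. That check does not bear on differences near 2-fold or on error between arrays. Python 3.11.15, numpy 2.4.6, pandas 2.3.3, statsmodels 0.14.6 and matplotlib 3.10.9 were used.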

Additional observations from a re-analysis of the deposited data

How the results depend on the processing

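The count of members at least 2-fold higher was 2 or 3 under the 11 alternative settings of scaling, floor and probe set choice, with 3 under scaling on 100 maintenance probe sets and with the median over probe sets. It was 0 at a 3-fold threshold, and no setting put a member at least 2-fold lower. Without _x_at and _s_at probe sets the 2 were XBP1 and CALR, and HERPUD1 had no value. Over all measured genes the count at least 2-fold higher was 767 in the setting used throughout. It was 451 with a floor at the 70th percentile and 2428 with no floor. The number of measured genes changes with the floor as well, so a steady member count is not a steady excess over all genes. Of 105 member values under the 11 alternative settings, many could not move, since a changed floor leaves signals well above it as they are. Of all 105, 104 moved by less than the spread between probe sets of a gene and 1 did not: CALR, at 1.59 without _x_at and _s_at probe sets, which leaves CALR 200935_at alone. That setting gave no value for HERPUD1, SEL1L and CANX, and a floor at the 70th percentile none for ERN1 and ATF6, so the signals of the sensors limit what can be said of them. The median log2 ratio of the members lay between 0.19 and 0.48. The degradation list's median lay between -0.23 and 0.03. No paired analysis was possible because each line has 1 array.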
